A study of Mus musculus with 2 samples.

Results

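The T cell receptor is a pair of variable chains that reads peptides held by MHC molecules but has almost no cytoplasmic part of its own. It signals through the CD3 chains bound to it, CD3 gamma, delta, epsilon and zeta, whose cytoplasmic motifs are phosphorylated by the kinase LCK. LCK is brought to the receptor by the coreceptors CD4, which binds MHC class II, and CD8, which binds MHC class I. CD28 and CD2 add signals from the antigen-presenting cell, and Thy1 is a surface glycoprotein of mouse T cells. Mouse epidermis houses a population of gamma-delta T cells that carry CD3 and Thy1 and mostly lack CD4 and CD8, whereas dermal infiltrates in dermatitis are known for CD4 T cells.

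Expression of 10 genes of this complex was examined in dorsal skin of mice of the inbred NC/Nga strain, which readily develops dermatitis. The genes were the CD3 chain genes Cd3d, Cd3e, Cd3g and Cd247, the coreceptor genes Cd4 and Cd8a, and Cd28, Cd2, Thy1 and Lck, and they were taken by their symbol in the platform annotation. Each of 8 genes had 1 probe with that symbol alone, out of 22180 genes measured in this way. No probe is named for Cd247 or Lck in the annotation used here, so both were not analysed here, and 3 of the 4 CD3 chain genes were measured. The ZAG group was female, 13 weeks old, with dermatitis induced by mite (Dermatophagoides farinae) ointment, and received topical recombinant ZAG at 1 µg/mL. ZAG stands for zinc-alpha-2-glycoprotein, which fat and epithelia secrete and which is known for mobilising lipid. The control group had the same strain, sex, age and mite-induced dermatitis without ZAG, and the labels do not say whether it received a vehicle. Both agents were applied 2 times a week for 6 weeks to mice that entered at 6 weeks of age. The design text gives 3 mice in each group, but the table holds 1 array per group. The sources used here do not say whether an array is 1 mouse or a pool, and no skin without dermatitis was analysed here.

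With 1 array per group there is no replicate error, no test and no p-value, and every difference below describes these 2 arrays. Values are log2 as deposited, and differences are ZAG minus control. The medians over all probes were 3.36 on the ZAG array and 3.33 on the control array. As a gauge of background, 1390 olfactory and vomeronasal receptor genes were used, which skin is not known to express. The 95th percentile of their levels was 3.16. Of all 22180 genes, 13593 had a mean level at or above this value. Where both arrays read below this gauge, no fold is printed. Where 1 array does, the gauge replaces its level and the fold is a lower bound, written "at least". Between probes of the same gene, the SD of the difference was 0.254 over 800 genes above the gauge, which is a scale for probe error and not for differences between mice. Probes differ in brightness, so levels of different genes are not read as relative amounts of RNA. Where the linear levels of a list are summed, the brightest probes weigh most.

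The members did not move one way. Among the 8 measured, 4 were lower on the ZAG array, 3 were higher and 1 had the same value on both. Over all genes, 47.9% were lower and 51.8% were higher. Among the 5 members with a mean level at or above the gauge, 4 were lower and 1 was higher. Of all genes at that level, 47.5% were lower and 52.4% higher. Among the 4 members above the gauge on both arrays, 3 were lower and 1 was higher. The share over all genes under that filter was not counted. The median difference of the 8 members was -0.05, against 0.01 over all genes. It moves with the level required. It was -0.21 over the 5 members with a mean level at or above the gauge, against 0.02 over all such genes. Over the 4 above the gauge on both arrays it was -0.42, with no median over all genes taken under that filter. The members ranged from -1.06 for Cd4 to 0.72 for Cd3g. With the gauge as the floor, 1 member was at least 2-fold lower and 0 were at least 2-fold higher, where 0.609% and 0.153% of all genes were. At 1.5-fold, 2 members (Cd4 and Thy1) were lower and 1 (Cd3g) was higher, where 2.79% and 1.46% of all genes were. Of the 8, Cd3e, Cd3g, Cd4 and Thy1 were above the gauge on both arrays, Cd3d and Cd2 on 1 array, and Cd8a and Cd28 on neither.

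**Figure D1:**
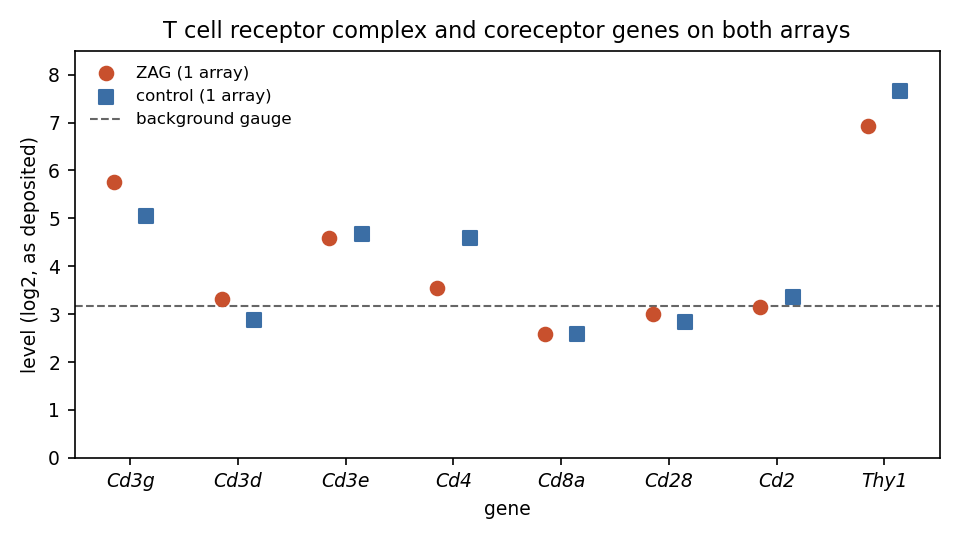
Level of each measured member (log2, vertical axis) on the ZAG array (circles) and the control array (squares), 1 array each, with the background gauge as a dashed line. Cd4 and Thy1 were lower on the ZAG array, Cd3g was higher, and Cd8a and Cd28 lay below the gauge of 3.16 on both arrays.

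Cd3g, the gene of CD3 gamma, was the member furthest higher with ZAG. Its level was 5.76 on the ZAG array and 5.04 on the control array. Both are well above the gauge of 3.16, and the difference of 0.72 is 1.64-fold. Of 13593 genes with a mean level at or above the gauge, 1.25% were at least as much higher, Cd3g included. Differences had an SD of 0.342 over the 3156 genes within 0.5 of its mean level.

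Cd3d, the gene of CD3 delta, was at 3.33 on the ZAG array and 2.89 on the control array. The control level is below the gauge and the ZAG level just above it, so Cd3d was at least 1.12-fold higher, and its difference of 0.44 partly reads background. Cd3e, the gene of CD3 epsilon, which pairs with both gamma and delta, was level on the arrays. It was at 4.58 on the ZAG array and 4.68 on the control array, a difference of -0.10. That is smaller than the SD between probes of one gene, and 34.9% of genes above the gauge were at least as low. The difference of Cd3g exceeded that of Cd3e by 0.81, each being read by 1 probe. In bulk skin, fewer cells of a type and less RNA per cell cannot be told apart.

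The CD3 gamma, delta and epsilon genes lie in one cluster on chromosome 9. Cd3g and Cd3d are read in opposite directions from starts 1355 bases apart (GRCm38.p6), and the start of Cd3e is 27825 bases from that of Cd3d. The divergent pair Cd3g and Cd3d had higher values on the ZAG array, though the control level of Cd3d is below the gauge. Any part of the sequence in these differences was not tested. The 250 bases before each start are shown for the pair and for Cd3e. They are from RefSeq, 5′ to 3′ on the gene's strand: Cd3g at chr9:44980432-44980681 (minus strand), Cd3d at chr9:44981536-44981785 (plus strand) and Cd3e at chr9:45009612-45009861 (minus strand). Capitals mark matches to motif letters.
Cd3g: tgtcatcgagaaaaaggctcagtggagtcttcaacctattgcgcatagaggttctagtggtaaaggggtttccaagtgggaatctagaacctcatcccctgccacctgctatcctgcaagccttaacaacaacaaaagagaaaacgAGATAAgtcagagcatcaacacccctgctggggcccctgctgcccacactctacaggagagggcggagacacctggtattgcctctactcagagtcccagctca
Cd3d: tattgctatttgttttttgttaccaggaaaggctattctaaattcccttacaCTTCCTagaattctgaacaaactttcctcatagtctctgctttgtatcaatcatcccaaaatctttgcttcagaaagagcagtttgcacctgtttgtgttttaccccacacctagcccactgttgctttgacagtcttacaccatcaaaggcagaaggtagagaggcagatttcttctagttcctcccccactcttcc
Cd3e: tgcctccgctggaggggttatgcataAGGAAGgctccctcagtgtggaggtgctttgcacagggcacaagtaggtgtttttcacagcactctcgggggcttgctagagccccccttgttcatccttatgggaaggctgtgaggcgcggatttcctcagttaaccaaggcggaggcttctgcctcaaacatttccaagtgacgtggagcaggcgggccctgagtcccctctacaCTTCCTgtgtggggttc

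Short motif letters of factors known in T cells, and the TATA box, were searched on both strands and set beside 32851 promoter windows of the same length. The ETS core AGGAAG stands in 29.5% of all these windows. The GATA core was searched as AGATAA, which 9.99% of the windows hold. For the RUNX core the letters TGTGGT were used, present in 14.0% of all. The E-box was searched as CAGCTG, with a share of 13.0%. The TATA box was searched as TATAAA, with a share of 12.4%. The Cd3g window held 1 GATA core, starting 104 bases before the start. The Cd3d window held 1 ETS core, on the opposite strand, 198 bases before the start. The Cd3e window held 2 ETS cores, 224 and 17 bases before the start, the nearer on the opposite strand. No matches overlapped, and the letters searched for the TATA box, RUNX core and E-box had no match in these windows. Other letters that these motifs can take, such as the CACCTG form of the E-box, were not searched. CACCTG stands in the printed Cd3g and Cd3d windows. A match of letters is a description and shows no binding.

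Cd4, the coreceptor gene of helper and regulatory T cells, was the member furthest lower. Its level was 3.54 on the ZAG array and 4.60 on the control array. The difference of -1.06 is 2.08-fold lower with ZAG, and the ZAG level stood 0.38 above the gauge. Of genes above the gauge, 0.883% were at least as low, and the SD of differences was 0.342 over the 3187 genes within 0.5 of its mean level. With the gauge at the 99th percentile of the receptor genes (4.10), the Cd4 level on the ZAG array falls below it and the fold becomes at least 1.41. The difference of Cd3g exceeded that of Cd4 by 1.77. Cd3g and Cd4 are the members furthest each way, each read by 1 probe. Cd3e, the other CD3 chain gene above the gauge on both arrays, differed by -0.10, so the CD3 genes did not move together against Cd4.

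Cd4 is also carried by some dendritic cells in mice, so markers of the other cells are given beside it. Of the macrophage and monocyte list, 8 of 9 measured genes were lower, beside 47.9% over all genes, with a median of -0.63. The sum of their linear levels was 1315 on the ZAG array and 1774 on the control array. None of the 9 was below the gauge on both arrays, Cd14 was furthest lower at -1.94 and Adgre1, the gene of F4/80, was at 0.09. Of the Langerhans and dendritic cell list, 4 of 8 were lower, the median was 0.01 (as low as -0.03 under rescaling), and the linear sums were 376 on the ZAG array and 343 on the control array. Cd207, the langerin gene, was 0.53 higher. Xcr1, a receptor gene of cross-presenting dendritic cells that was below the gauge on the ZAG array, was at least 1.35-fold lower. Batf3 of the same list, below the gauge on the control array and in its mean level, was at least 1.13-fold higher. The part of these cells in the Cd4 difference was not tested.

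Cd8a, the gene of the CD8 alpha chain of cytotoxic T cells, was at 2.59 on both arrays, with the same deposited value to the last digit. That is 0.58 below the gauge, so no level can be told from background and no direction is given. Its partner chain gene Cd8b1 was at 3.30 on the ZAG array and 3.10 on the control array, on either side of the gauge. Of the coreceptor genes, Cd4 was above the gauge on both arrays, and Cd8a and Cd8b1 were not.

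Cd28, the gene of the costimulatory receptor for CD80 and CD86, was at 3.01 on the ZAG array and 2.84 on the control array. Both are below the gauge, so no fold is given. Cd2, the gene of an adhesion receptor that binds CD48 in mice, was at 3.15 on the ZAG array and 3.36 on the control array. The ZAG level is 0.01 under the gauge, so Cd2 was at least 1.15-fold lower, a smaller difference than that SD between probes.

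Thy1 was at 6.93 on the ZAG array and 7.66 on the control array. It was far above the gauge on both, and the difference of -0.74 is 1.67-fold lower with ZAG. Of genes above the gauge, 2.55% were at least as low, and the SD of differences was 0.377 over the 1459 genes within 0.5 of its mean level. Thy1 is also made by dermal fibroblasts and by neurons. Of the fibroblast list 7 of 9 genes were lower, beside 47.9% over all genes, with a median of -0.46. The linear sums of this list were 7116 on the ZAG array and 8800 on the control array. Pdgfrb, a receptor gene of fibroblasts and pericytes, was furthest lower at -0.84 and the matrix gene Dcn was at 0.04. Of the Schwann cell and nerve list 3 of 4 measured genes were lower (median -0.24), with Ncam1 at -0.75 and the myelin gene Mbp at 0.16. The part of these cells in the Thy1 difference was not tested.

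**Figure D2:**
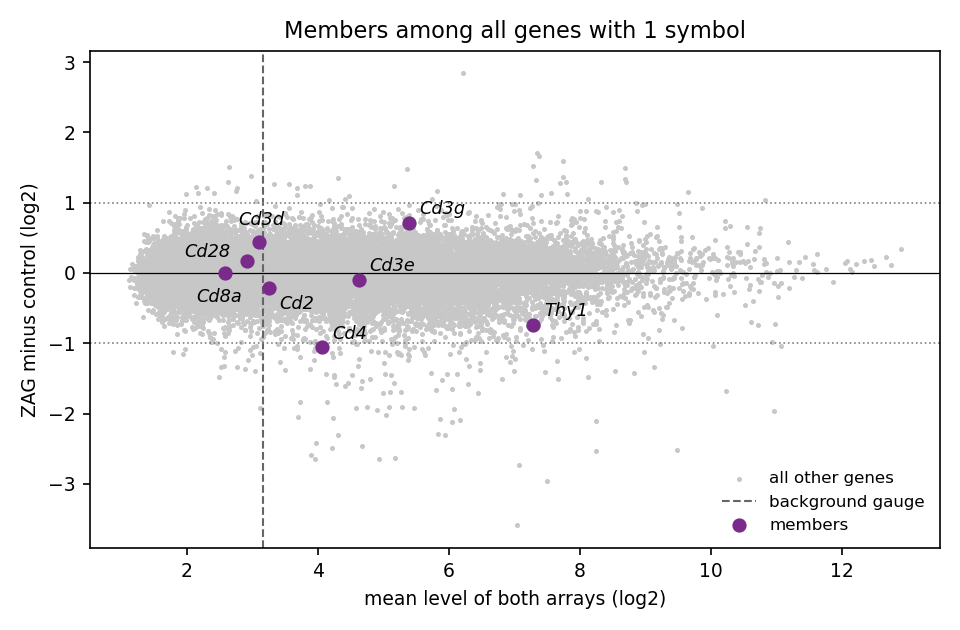
Difference ZAG minus control (log2, vertical axis) against the mean level of both arrays (log2, horizontal axis) for 22180 genes (grey) and the 8 measured members (purple). The dashed line is the background gauge and dotted lines mark 2-fold. Cd4 lies past the lower dotted line, while Cd3g at 0.72 and Thy1 at -0.74 lie between the lines at the edge of the grey band.

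Constant-region genes of the receptor chains themselves were listed by 10 symbols, and 0 of them had a probe named for them alone. Among 21 other surface receptors of T cells, 10 were lower and 11 higher, beside 47.9% and 51.8% over all genes. Their median was 0.01 (-0.02 to 0.01 under rescaling), and 10 had mean levels at or above the gauge, beside 13593 of all 22180 genes. Ly9, an adhesion receptor gene of the SLAM family on lymphocytes, was furthest higher at 4.16 on the ZAG array and 3.39 on the control array. Icos, the gene of the inducible costimulator of activated T cells, was furthest lower at 3.88 on the ZAG array and 4.46 on the control array. Cd6, the gene of a scavenger-type receptor of T cells, had a difference of -0.19. The inhibitory receptor gene Ctla4 was below the gauge on both arrays, and Pdcd1, the gene of PD-1, was at 3.48 on the ZAG array and 3.42 on the control array. Zap70, Ctla4, Pdcd1, Cd48, Cd86, Fyn, Foxp3 and Gata3 are named for their part in T cell signalling or subsets, after their values were seen.

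Genes of signalling next to the receptor were mostly lower by small amounts. Of 32 measured genes, 24 were lower and 8 higher, with a median of -0.18, beside 47.9% lower over all genes. Among the 27 with mean levels at or above the gauge, 22 were lower and 5 higher, beside 47.5% lower and 52.4% higher over all genes at that level. At 1.5-fold with the gauge as the floor, 1 of the 32 was lower and 0 were higher, beside 2.79% and 1.46% of all genes. That gene was Lcp2, which encodes the adaptor SLP-76 of T cells, mast cells and other myeloid cells, at 6.07 on the ZAG array and 6.82 on the control array. Cblb, a ubiquitin ligase gene that restrains T cell activation, had a difference of -0.47. Lat, the gene of the membrane adaptor that ZAP-70 phosphorylates, was 0.23 higher, and Pag1, the gene of an adaptor that recruits the inhibitory kinase CSK, was 0.10 higher. These were the furthest higher among genes with mean levels at or above the gauge; Ptpn22, Ubash3a and Themis had larger positive differences at mean levels below it. Zap70, the gene of the kinase that binds phosphorylated CD3 chains, was at 3.49 on the ZAG array and 3.52 on the control array. Fyn, the gene of the other SRC-family kinase of T cells, differed by 0.08.

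**Figure D3:**
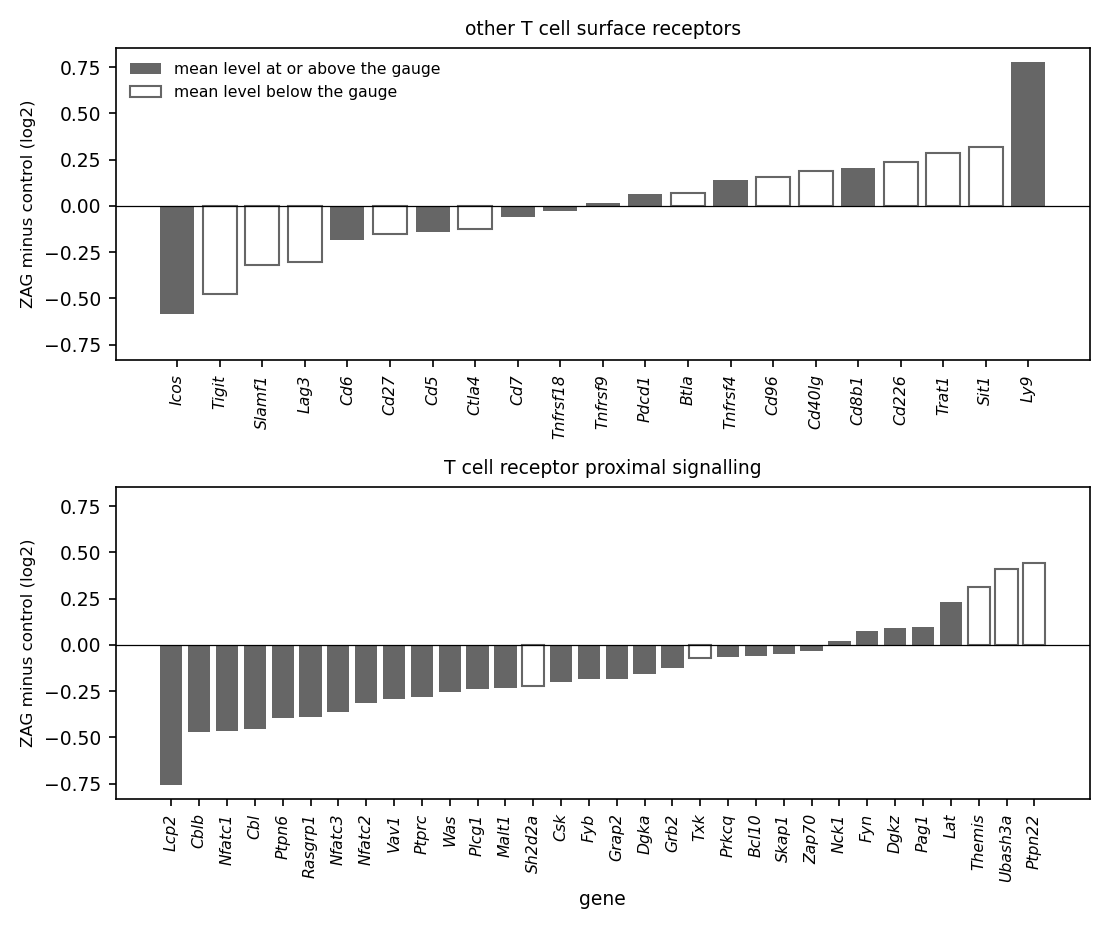
Difference ZAG minus control (log2, vertical axis) of each measured gene (horizontal axis) among other T cell surface receptors (top, 21 genes) and receptor-proximal signalling genes (bottom, 32 genes). Filled bars have mean levels at or above the background gauge, open bars lie below it. Surface receptors run both ways from Icos at -0.59 to Ly9 at 0.78, while 24 of the signalling genes are below 0.

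Many of these signalling genes are used by leukocytes at large. Of 8 pan-leukocyte genes, 8 were lower, beside 47.9% over all genes, with a median of -0.30. Their linear sums were 427 on the ZAG array and 619 on the control array. Laptm5, a lysosomal membrane gene of blood cells, was furthest lower at -1.07. Ptprc, the gene of the leukocyte phosphatase CD45, stands in both lists and had a difference of -0.28. Of the neutrophil list 7 of 8 were lower (median -1.44), and the linear sums were 514 on the ZAG array and 1439 on the control array. S100a8 and S100a9 had the highest levels of that list on both arrays and weigh most in these sums. Ly6g was the gene not lower, with a difference of 0.02, and was below the gauge on both arrays. Clec4e of the neutrophil list, a pattern recognition receptor gene, was at 2.60 on the ZAG array, below the gauge, and 5.19 on the control array. The part of these cells in the signalling genes was not tested.

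Ligands and MHC genes that the members meet on other cells differed little. Of 9 measured, 3 were lower and 6 higher (median 0.09), beside 47.9% and 51.8% over all genes. With the gauge as the floor 0 reached 1.5-fold, near the shares of 2.79% lower and 1.46% higher over all genes. The MHC class II genes H2-Eb1 and H2-Aa, whose products CD4 binds, were 0.31 and 0.28 higher. Cd80 had a difference of -0.36, while Cd86, its fellow ligand of CD28, was at 0.09. Cd48, the mouse ligand gene of CD2, was at 5.12 on the ZAG array and 4.88 on the control array. Lgals9, which encodes the lectin galectin-9 and was listed with them, had a difference of -0.34.

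Transcription factors of T cell lineages ran both ways. Of 12 measured, 8 were lower and 4 higher (median -0.09), beside 47.9% and 51.8% over all genes. Bcl11b, a factor of T cell commitment that keratinocytes also make, was at 5.38 on the ZAG array and 6.07 on the control array. Runx3, known in CD8 T cells and Langerhans cells, had a difference of -0.40. Zbtb7b, the gene of the CD4 lineage factor ThPOK, was 0.19 higher, and Lef1, a factor of T cells and hair follicles, was 0.32 higher. Foxp3, the factor of regulatory T cells, was at 3.66 on both arrays, and Gata3, known in type 2 helper cells and in epidermis, differed by 0.13.

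Cytokine and homing receptors were lower in 11 of 13 measured genes (median -0.24), beside 47.9% lower over all genes. With the gauge as the floor, 3 reached 1.5-fold lower and 0 reached 1.5-fold higher, beside 2.79% and 1.46% of all genes. S1pr1, a receptor gene for exit from tissue that endothelium also expresses, was at 4.25 on the ZAG array and 5.20 on the control array. Ccr7, which guides T cells and dendritic cells to lymph nodes, was at 3.46 on the ZAG array and 4.21 on the control array. Itgae, the gene of the integrin CD103 of epithelial T cells and dendritic cells, was 0.24 higher. The endothelial list was lower in 6 of 7 genes (median -0.37, with Cdh5 at -0.91 and Tek at 0.07), and its part in the S1pr1 difference was not tested.

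Of the NK and cytotoxic list, which shares effector genes with CD8 T cells, 5 of 9 were lower (median -0.07), near the 47.9% over all genes. In this list 6 had mean levels below the gauge, where 13593 of all 22180 genes were at or above it. Prf1, the perforin gene, was at 4.52 on the ZAG array and 4.08 on the control array, and Klrd1, the CD94 gene, differed by -0.07. Of the B cell list, 4 of 5 measured genes had mean levels below the gauge, the median was -0.17, and Blnk, which other leukocytes also use, differed by -0.20. Keratinocyte genes were lower in 4 of 6 (median -0.14), beside 47.9% over all genes, with Krt14 at -0.73 and Krt15 at 0.66.

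**Figure D4:**
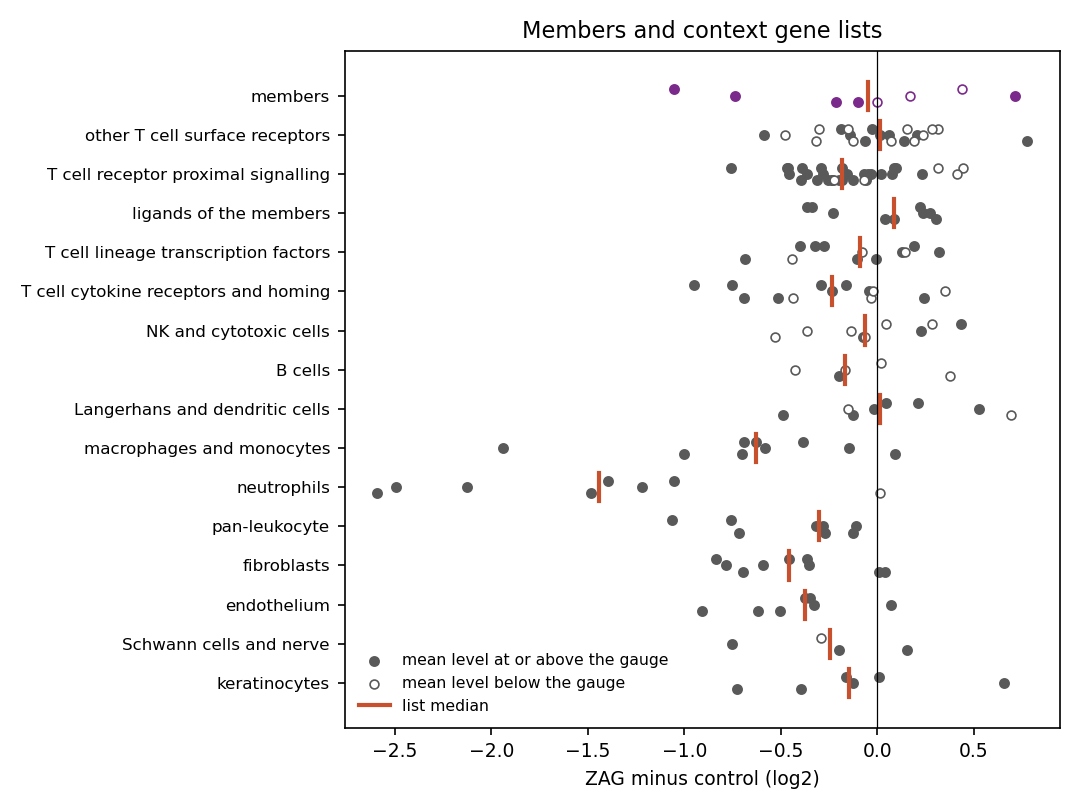
Difference ZAG minus control (log2, horizontal axis) of each measured gene in the members (purple) and 15 context lists, with the median of each list as an orange bar. Filled points have mean levels at or above the background gauge. The members spread on both sides of 0 with a median of -0.05, the macrophage and neutrophil medians lie at -0.63 and -1.44.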

How the data were processed

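The deposited table holds log2 values of 33793 probes on 2 Affymetrix arrays, 1 labelled ZAG and 1 labelled control. The log2 scale was inferred from the range of the deposited values (0.866 to 13.19 for ZAG, 0.889 to 12.75 for control). For background correction, summarisation and normalization by the authors, the sources used here give nothing, and no detection calls were used. The number of arrays limits the precision. Per the labels, RNA was column-purified and sense cDNA was biotin-labelled.

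Symbols came from the platform annotation. Probes with 1 symbol (23521) were kept, probes with several (1814) or none (8458) were left out, and the 1082 genes with several probes were averaged, giving 22180 genes. A reference gene table (GRCm38.p6) held the gene identifiers of 23328 of these probes, with 0 differing symbols. The difference was ZAG minus control. The members and gene lists were chosen with earlier results of these data known. All 10 members were to be named, with, from each list at or above the gauge, the 2 genes furthest each way (1 for lists of other cell types); other names are list members. The counting was tested on simulated differences, without the gauge as a floor. These had less noise than the real differences and shifts larger than any member's. That test checks the code and gives no error rate for these arrays. Alternatives were median centring, quantile normalization, loess (span 0.3), the brightest probe, a 1.5-fold threshold, other gauges and filters on level. Calculations used Python 3.11.15 with pandas 2.3.3 and numpy 2.4.6, loess used statsmodels 0.14.6, and plots used matplotlib 3.10.9. Promoter sequences were RefSeq's (GRCm38.p6), with 6 of the 10 members matched.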

Additional observations from a re-analysis of the deposited data

How the results depend on the processing

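Rescaling changed no direction among the 7 members that differed as deposited. Under median centring, quantile normalization, loess and the brightest probe, Cd4 ranged from -1.08 to -1.06, Cd3g from 0.69 to 0.72 and Thy1 from -0.78 to -0.74. Each measured member has 1 probe and no probe of several symbols holds a member, so the choice of probe could not move them. Cd8a, equal as deposited, ranged from -0.03 to 0.00. The fold and the gauge set the counts. At 1.5-fold, 2 members were lower and 1 higher, against 1 and 0 at 2-fold, with the gauge as the floor. Over all genes 618 were lower and 323 higher at 1.5-fold, against 135 and 34 at 2-fold, with that floor. Without it, 807 were lower and 490 higher, against 160 and 46. With the gauge at the 99th percentile, 0 members were 2-fold lower, since the floor rises above the Cd4 level with ZAG. At or above the median level, 30 genes were 2-fold higher without the floor. The median of NK and cytotoxic genes was 0.22 over the 3 at or above the gauge, against -0.07 over all 9, since fewer genes enter. Under rescaling, the median of Langerhans and dendritic cell genes turned from 0.01 to as low as -0.03, and that of other T cell surface receptors to as low as -0.02. The median of the members went from -0.05 over all those measured to -0.42 over those above the gauge on both arrays. That move was larger than the SD between probes of one gene (0.254), but fewer genes enter and no median over all genes was taken under that filter. Other medians moved by less than that SD. No paired analysis was possible because each group has 1 array.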

Other observations

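Variable-segment genes of the receptor chains were looked up after the constant-region symbols were found to have no probe of their own. Of 8 such genes, read by 21 probes, 7 were below the background gauge on both arrays. The share of all genes below it on both arrays was not counted. The exception was the alpha-chain segment Trav12-2, at 3.73 on the ZAG array and 3.50 on the control array. Its 6 probes differed by -0.0031 to 0.57, and 4 of the 6 were higher on the ZAG array. Variable segments resemble each other, so reads of single segments are uncertain. The gamma-chain segments Trgv5, at 2.13 on the ZAG array and 1.68 on the control array, and Trgv6, at 2.43 on the ZAG array and 3.14 on the control array, stood below the gauge.

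The deposited value of Cd8a was the same on both arrays to the last digit. In all, 121 of 33793 probes (0.358%) had such a pair of equal values, of which 104 were below the gauge and 17 at or above it.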
